A study of Homo sapiens with 15 samples.

Results

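The clustered protocadherins are cell-surface adhesion proteins encoded by 3 neighbouring gene arrays, alpha, beta and gamma, on chromosome 5. Each array holds a row of large variable exons, each with its own promoter. In the alpha and gamma arrays every variable exon is spliced to the same small set of constant exons, whereas each beta gene is complete in its variable exon. Neurons are known to read a different few promoters from cell to cell. That choice depends on CTCF and cohesin bound at the promoters and on DNA methylation, and cultured lines inherit it from the cell they were grown from. The proteins pair with identical isoforms on touching membranes, which lets neurites of the same cell recognize and avoid each other. The C-type members (PCDHAC1, PCDHAC2, PCDHGC3, PCDHGC4 and PCDHGC5) stand at the ends of the alpha and gamma arrays and are less subject to random choice.

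Members were all rows of the deposited table whose symbol has the form of an alpha, beta or gamma protocadherin, and 55 of 55773 rows met this rule. They comprise 14 alpha, 18 beta, 12 gamma A, 6 gamma B and 5 C-type rows, which make 16 rows in the alpha array, 18 in the beta array and 21 in the gamma array. PCDHA14, PCDHB17 and PCDHB18 are pseudogenes in GENCODE release 29. PCDHGB5 was not analysed here. In GRCh38 the alpha array spans chr5:140786136-141012347, the beta array chr5:141051135-141249365 and the gamma array chr5:141330571-141512981.

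Ribosome footprints, the pieces of mRNA that ribosomes protect from nuclease, were counted in 15 libraries of HEK293 cells, an embryonic kidney line. In 3 groups, Flp-In T-REx 293 lines were given doxycycline at 1 µg/mL for 24 h to induce Flag/HA-control, Flag/HA-ZC3H7A or Flag/HA-ZC3H7B. These are called the Flag/HA control, ZC3H7A overexpression and ZC3H7B overexpression, and the labels call the 3 libraries of each independent replicates. The other groups were Parental (wild-type cells with the control hairpin shCTR) and ZC3H7A/B-DD (ZC3H7A-KO cells with the hairpin shZC3H7B). Both had been selected with puromycin at 5 µg/mL and were lysed from frozen pellets with cycloheximide at 100 µg/mL. ZC3H7A and ZC3H7B are related CCCH zinc finger proteins. The labels do not say whether the 3 libraries of Parental or of ZC3H7A/B-DD came from separate cultures, and their p-values reflect the spread of those libraries alone, possibly a technical one. The Flag/HA libraries and the other 6 differ in lysis, kit and laboratory, and levels were not compared between them. Each construct sits in a line of its own, so a difference between lines and a response to the protein cannot be told apart. The same holds for the ZC3H7A-KO cells set against wild-type cells. Footprints also do not separate mRNA level from translation, and in bulk cells fewer cells using a gene and fewer footprints per cell cannot be told apart.

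The exon structure decides which footprints can be credited to a member. Across the 15 protein-coding alpha members 456 coding bases were common to all, across the 21 gamma members 372, and across the 16 protein-coding beta members 0. The share of coding bases lying in an exon of any other gene was 14.7% to 35.1% per alpha member. It was 0% to 36.5% per beta member and 12.4% to 27.6% per gamma member, with PCDHB2 at 25.9% and PCDHGB1 at 27.6%. Past the junction, all 15 alpha members had the same coding sequence, and so did all 21 gamma members. The junctions of 4 members are shown, from GENCODE release 29 transcripts, to make this visible. Each has the last 30 bases of the variable exon in lower case and the first 30 bases of the shared exon in capitals.
PCDHGC3: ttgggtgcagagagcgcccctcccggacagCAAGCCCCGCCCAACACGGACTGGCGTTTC
PCDHGA11: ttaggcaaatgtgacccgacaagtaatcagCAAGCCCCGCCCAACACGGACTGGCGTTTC
PCDHGB1: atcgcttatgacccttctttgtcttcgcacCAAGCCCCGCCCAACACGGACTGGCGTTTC
PCDHA11: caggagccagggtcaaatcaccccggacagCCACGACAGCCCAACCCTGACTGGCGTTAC
A footprint lying wholly in the capitals cannot name its gene. How the authors treated such reads is not given in the sources used here. The values show that they were not added to every gamma member: PCDHGB4 had 0 reads in the 3 Flag/HA control libraries, where PCDHGC3 had 683 to 715 normalized counts.

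Variable exons also resemble each other. Each member's own coding exon was cut into all stretches of 28 bases, about the length of a footprint, and each stretch was looked for in the coding sequences of the other members. The share found elsewhere had a median of 23.4% in the alpha array, 34.3% in the beta array and 11.1% in the gamma array. It was 0% for all 5 C-type members and for PCDHB1. PCDHGA11 had 7.23%, PCDHGA9 9.60%, PCDHGB6 11.1%, PCDHGB1 17.2% and PCDHGA1 18.7%. The highest share was 60.0%, for PCDHB8, whose closest relative was PCDHB13 (59.4%). Values of PCDHB8, PCDHB9, PCDHB10 and PCDHB13 (55.4% to 60.0%) and of PCDHA6, PCDHA7, PCDHA8 and PCDHA9 (45.5% to 51.5%) are therefore among the least certain, since reads with several matching places may have been dropped or divided.

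**Figure D1:**
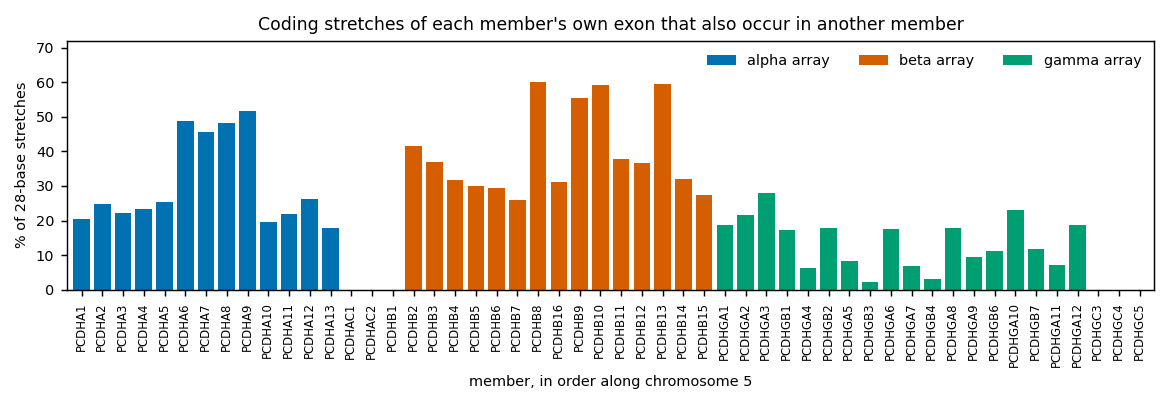
Share of the 28-base stretches of each member's own coding exon (y axis, percent) that also occur in the coding sequence of another member, for the 52 protein-coding members in order along chromosome 5, coloured by array. The C-type members and PCDHB1 share none, and PCDHB8, PCDHB9, PCDHB10 and PCDHB13 share over 55%.

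The promoters carry a short conserved element, known in this family as the CGCT box, close to where CTCF binds. RefSeq promoter sequences (GRCh38.p14, from 250 bases before to 50 after the start) were found for 46 of the 55 members, as 50 promoters. The letters CGCT, on either strand, occurred in 45 of the 46, but also in 70.0% of all 35116 promoters, so alone they say little. Longer forms differed between arrays. ATGTCGCT was in 9 of 11 alpha promoters without the C-type and in 0.234% of all promoters. GTGGCGCT was in 13 of 14 beta promoters and in 1.15% of all. CGCCGCTG was in 9 of 17 gamma promoters without the C-type and in 4.29% of all, both strands counted. None of these 3 words was found in the promoters of another array or in the 4 C-type promoters matched. Among the 8-letter words that hold CGCT, they were picked as those that most members of an array hold. Their overlap with CGCT was therefore set by the choice, and their counts are descriptions. In the beta array GGTGGCGC, a word without CGCT, was held by as many promoters (13).

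Windows of 61 bases are shown for the members that lead the results and for an alpha and a beta member, with the array's word, or the part of it that the promoter holds, in capitals. All are on the plus strand of GRCh38.p14.
PCDHGC3: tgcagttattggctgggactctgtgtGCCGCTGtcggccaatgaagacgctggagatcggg
PCDHGA11: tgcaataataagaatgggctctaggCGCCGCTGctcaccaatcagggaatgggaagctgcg
PCDHGB1: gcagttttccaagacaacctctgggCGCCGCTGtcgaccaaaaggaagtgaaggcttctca
PCDHGA1: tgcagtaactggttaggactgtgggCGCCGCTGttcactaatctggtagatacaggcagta
PCDHGA9: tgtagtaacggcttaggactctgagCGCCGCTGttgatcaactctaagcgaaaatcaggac
PCDHGB6: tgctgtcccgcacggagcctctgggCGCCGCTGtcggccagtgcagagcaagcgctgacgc
PCDHA12: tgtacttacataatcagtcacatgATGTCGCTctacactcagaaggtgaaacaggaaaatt
PCDHB13: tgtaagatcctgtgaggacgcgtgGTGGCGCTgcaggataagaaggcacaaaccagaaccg
The windows lie at chr5:141475868-141475928 for PCDHGC3, chr5:141420960-141421020 for PCDHGA11, chr5:141350013-141350073 for PCDHGB1 and chr5:141330391-141330451 for PCDHGA1. PCDHGA9 is at chr5:141402702-141402762, PCDHGB6 at chr5:141407912-141407972, PCDHA12 at chr5:140875232-140875292 and PCDHB13 at chr5:141213853-141213913. None of these windows overlaps an annotated exon. The 5 gamma A and gamma B members shown hold the same 8 letters. The part of this word in the changes given below was not tested.

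The reads assigned to genes numbered 22661812 to 29515572 in the 9 Flag/HA libraries, 32955833 to 39064072 in Parental and 20777204 to 42680589 in the libraries labelled ZC3H7A/B-DD. The targeted genes were checked first. Normalized counts of ZC3H7A were 6509, 6526 and 6607 in the control and 37858, 37598 and 38675 in its own overexpressing line. ZC3H7B stood at 2231, 2137 and 2089 in the control and at 27538, 27182 and 28936 in its own. Neither was lower where it was to be lost: ZC3H7A stood at 7116, 1890 and 5066 in the libraries labelled ZC3H7A/B-DD against 1885, 1820 and 2311 in Parental, and ZC3H7B at 3948, 2399 and 2969 against 2479, 2321 and 2609. Directions for that group are therefore those of the libraries so labelled. Of 13 HEK293 markers, 12 or 13 reached 10 normalized counts in every library of each group, and PAX8 was at 0 with ZC3H7B. The summed level of 4 neuronal markers was 457 to 501 in the control, 335 to 391 with ZC3H7A, 309 to 370 with ZC3H7B, 324 to 465 in Parental and 707 to 814 in the libraries labelled ZC3H7A/B-DD. For 5 blood markers the sum was 601 to 795 in control libraries, against 239 to 312 under ZC3H7A overexpression and 321 to 432 under ZC3H7B. For 5 fibroblast markers it was 89.3 to 111, 130 to 155 and 51.0 to 83.6 in the same order. Of the blood markers 1 reached 10 normalized counts in every control library, and 2 in every library of either overexpressing line. Of the fibroblast markers 2 did so in the control, 1 with ZC3H7A and 1 with ZC3H7B. Few genes can therefore set these sums. The part of these markers in the results was not tested.

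Clustered protocadherins were a small and uneven share of the footprints. Of every 1000000 reads assigned to genes, control libraries gave 33.3 to 34.0 to these members, ZC3H7A libraries 26.9 to 32.1 and ZC3H7B libraries 24.9 to 28.7. Parental libraries gave 41.5 to 48.2, and those labelled ZC3H7A/B-DD 65.6 to 69.0. PCDHGC3 and PCDHGA11 alone made up 81.8% ± 0.79 of the members' reads in the control (SD, n = 3 in every group) and 79.7% ± 2.52 in Parental. Per kilobase of coding sequence that no other gene covers, PCDHGC3 stood at 271 ± 6.26 normalized counts and PCDHGA11 at 113 ± 6.73 in the control. The next member, PCDHGB1, stood at 35.3 ± 4.64 per kilobase, and these 3 levels lay further apart than their spread. Below them PCDHGB2 (6.93 ± 1.69), PCDHGA1 (6.03 ± 1.87) and PCDHGA9 (5.26 ± 3.13) did not differ beyond their spread.

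Most members were close to silent. In the control 10 of the 55 had no read in any of the 3 libraries and 30 had 1 to 9 reads over the 3. Only 6 had 30 or more. With ZC3H7A 9 members had no read, 21 had 1 to 9 and 8 had 30 or more, and with ZC3H7B these counts were 10, 31 and 4. Parental had 1 member without a read and 11 with 30 or more, and the libraries labelled ZC3H7A/B-DD had 2 and 8. PCDHA14 had no read in any library, and all of its annotated exonic bases also belong to another gene. The pseudogene PCDHB17 had 0 to 6 reads per group and PCDHB18 0 to 5.

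**Figure D2:**
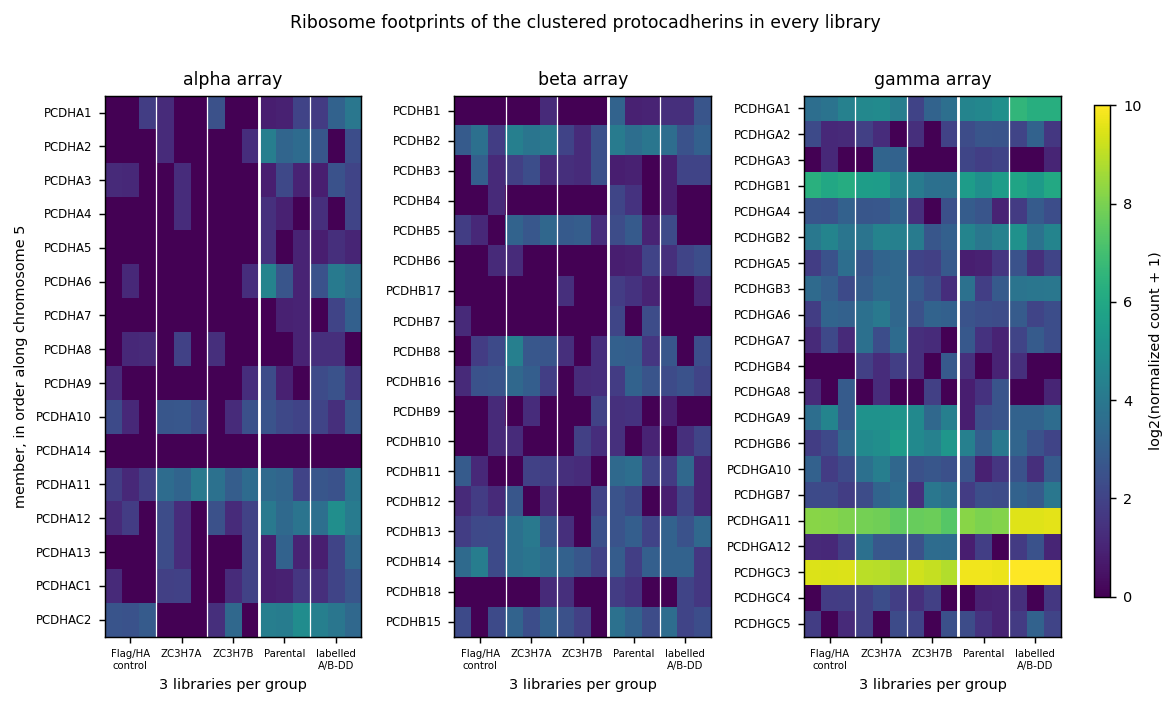
Footprints of all 55 members (rows, in order along chromosome 5) in the 15 libraries (columns, 3 per group, groups divided by white lines), as log2(normalized count + 1). PCDHGC3 and PCDHGA11 are the bright rows of the gamma array, and most rows of the alpha and beta arrays are dark. Levels are to be compared only within the 9 Flag/HA libraries or within the other 6.

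Within the alpha array, the summed level was 14.1 ± 2.09 normalized counts in the control, 24.7 ± 4.96 with ZC3H7A and 24.1 ± 3.88 with ZC3H7B, and the control libraries lay below the other 6. It was 78.8 ± 17.3 in Parental and 88.4 ± 23.3 in the libraries labelled ZC3H7A/B-DD, which overlapped. The beta array summed to 39.4 ± 11.8 in the control, 78.6 ± 17.4 with ZC3H7A and 27.0 ± 3.87 with ZC3H7B, and the 3 ZC3H7A libraries were the highest of these 9. It summed to 72.2 ± 21.7 in Parental and 53.6 ± 4.78 in the libraries labelled ZC3H7A/B-DD. The gamma array summed to 1151 ± 24.3, 918 ± 80.4 and 865 ± 86.2 in the control, with ZC3H7A and with ZC3H7B, and every overexpressing library lay below every control. In Parental it summed to 1291 ± 36.4, against 2050 ± 33.1 in the libraries labelled ZC3H7A/B-DD. Without PCDHGC3 and PCDHGA11, the other 53 members summed to 220 ± 7.74 in the control, 336 ± 22.7 with ZC3H7A and 176 ± 25.4 with ZC3H7B. In the ZC3H7A line the leading genes stood lower and the sum of the rest higher than in the control, and the leading genes' share of member reads was 67.0% ± 1.02, against 80.5% ± 4.26 with ZC3H7B.

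**Figure D3:**
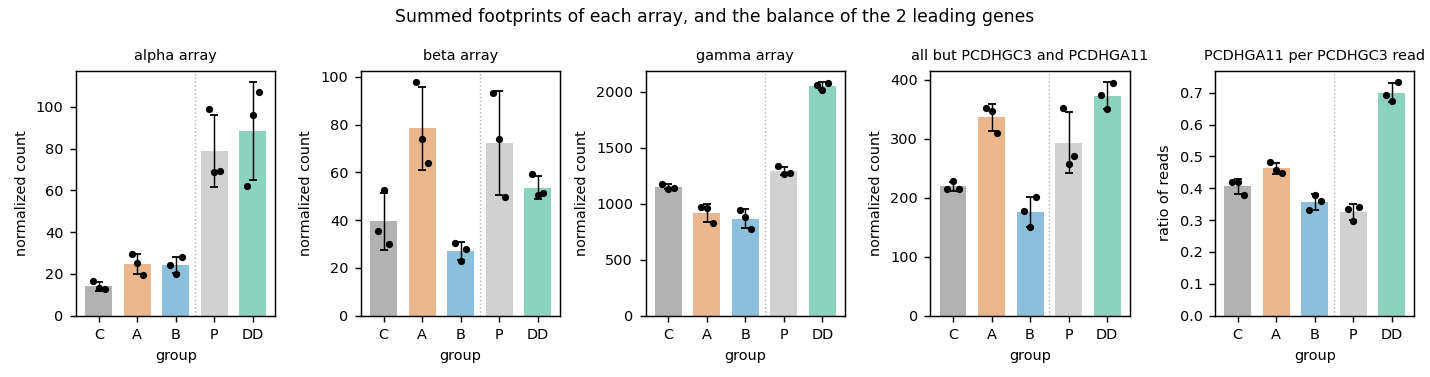
Summed normalized counts of the alpha, beta and gamma arrays and of the 53 members other than PCDHGC3 and PCDHGA11, and PCDHGA11 reads per PCDHGC3 read (y axes). Bars are means of 3 libraries, error bars SD, points libraries; C is Flag/HA control, A ZC3H7A overexpression, B ZC3H7B overexpression, P Parental and DD the libraries labelled ZC3H7A/B-DD. The beta sum is highest with ZC3H7A among the Flag/HA groups, and the ratio is highest in DD.

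With ZC3H7A overexpressed, PCDHGC3, PCDHGA11 and PCDHGB1, the 3 leading members of the control, fell, while PCDHGB6, PCDHGA9, PCDHA11 and PCDHGA12 rose. Members were tested with limma on log2(normalized count + 1) in a fit over all genes at 10 or more in at least 3 libraries. Of the 55 members 12 passed that filter, and 7 were called at a Benjamini-Hochberg adjusted p under 0.05, against 57.5% of all 15599 genes tested. Higher calls numbered 4 (29.2% of all genes) and lower calls 3 (28.2% of all genes). The share called was therefore near that of all genes. The median log2 change was 0.77 over the 12 and 0.02 over all genes. PCDHA11, PCDHGB6, PCDHGB7 and PCDHGA12 passed the filter only through the overexpressing groups, and PCDHB2 and PCDHB14 only through the ZC3H7A libraries. A higher value was therefore built into their entry, and these counts and medians are descriptions only.

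PCDHGC3 is a C-type isoform known to bind Axin1 and to favour dendrite branching. It stood at 715, 683 and 703 normalized counts in the control and at 499, 492 and 413 with ZC3H7A. All ZC3H7A libraries were below all controls, with a log2 change of -0.58 ± 0.09 (SE; limma adjusted p = 1.25e-05). PCDHGA11, a gamma A isoform, stood at 300.0, 287 and 267 in the control and at 241, 225 and 185 with ZC3H7A. It fell by 0.40 ± 0.13 on the log2 scale (limma adjusted p = 0.00962), but by 0.29 and without a call when ZC3H7A replicate 3, the lowest library, was left out (limma adjusted p = 0.0690). PCDHGB1, the leading gamma B isoform, stood at 81.0, 62.2 and 71.7 in the control and at 46.9, 44.7 and 22.2 with ZC3H7A. Its log2 change was -0.96 ± 0.30 (limma adjusted p = 0.00875), and -0.63 without the same replicate (limma adjusted p = 0.0792).

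Of the members that rose, PCDHGB6, PCDHA11 and PCDHGA12 were nearly silent in the control, while PCDHGA9 was among its better-read members. PCDHGB6 stood at 2.53, 3.59 and 8.80 in the control and at 26.8, 29.3 and 44.3 with ZC3H7A, a log2 change of 2.64 ± 0.42 (limma adjusted p = 9.07e-06). Its neighbour PCDHGA9, whose variable exon lies just before it, stood at 11.4, 21.5 and 6.29 in the control and at 33.5, 33.5 and 35.2 with ZC3H7A. PCDHGA9 rose by 1.47 ± 0.42 (limma adjusted p = 0.00424), although its control libraries ranged from 6.29 to 21.5. PCDHA11 stood at 2.53, 1.20 and 2.51 in the control and at 10.7, 8.38 and 15.7 with ZC3H7A (log2 change 2.02 ± 0.54, limma adjusted p = 0.00279). PCDHGB6 and PCDHA11 had passed the filter only through the overexpressing groups. Without any filter their adjusted p-values were 1.75e-05 and 0.0154 (limma). PCDHGA12, the variable exon between PCDHGA11 and PCDHGC3, stood at 1.27, 1.20 and 2.51 in the control and at 12.1, 5.59 and 5.22 with ZC3H7A (log2 change 1.64 ± 0.62, limma adjusted p = 0.0265). That call was lost without the filter on low values (limma adjusted p = 0.0830), with quantile scaling (0.0673) and without control replicate 1 (0.0614) or control replicate 2 (0.0646). Without ZC3H7A replicate 1 the gene no longer passed the filter.

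The other 5 tested members were not called. Among them PCDHB2 came closest: it stood at 6.33, 12.0 and 2.51 in the control and at 18.7, 14.0 and 15.7 with ZC3H7A, without overlap (log2 change 1.29 ± 0.58, limma adjusted p = 0.0596). It was called higher with a pseudocount of 5 (limma adjusted p = 0.0387), with precision weights (0.0212), in 1 fit of 15 libraries (0.0362) and without control replicate 2 (0.0276), and by edgeR's quasi-likelihood test (adjusted p = 0.0429). PCDHGA1 stood at 11.4, 13.2 and 20.1 against 24.1, 26.5 and 18.3 (log2 change 0.62 ± 0.45, limma adjusted p = 0.250). PCDHB14 stood at 10.1, 17.9 and 3.77 against 12.1, 14.0 and 10.4, and PCDHGB2 at 15.2, 21.5 and 13.8 against 13.4, 21.0 and 19.6. Both overlapped widely. PCDHGB7 stood at 3.80, 3.59 and 2.51 against 4.02, 8.38 and 10.4 (log2 change 0.93 ± 0.67, limma adjusted p = 0.242).

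PCDHAC2, the C-type isoform that serotonin neurons need to space their axons, did not reach the filter. It stood at 5.06, 4.79 and 6.29 in the control, and no read was found in any of the 3 ZC3H7A libraries, where 3 reads would be 4.02, 4.19 and 3.91 normalized counts. Without the filter it was called lower (limma adjusted p = 0.00437), with a fitted log2 change that depends on the pseudocount. The same unfiltered fit called PCDHB5, a beta member, higher: it stood at 2.53, 1.20 and 0 in the control and at 8.03, 5.59 and 9.13 with ZC3H7A (log2 change 2.09, limma adjusted p = 0.0300). With ZC3H7B PCDHAC2 stood at 1.52, 9.39 and 0. The other C-type members were near silence: PCDHAC1 had 1 read over the control libraries, 4 with ZC3H7A and 3 with ZC3H7B, PCDHGC4 stood at 0 to 4.19 and PCDHGC5 at 0 to 4.40 in these 9 libraries. PCDHGC4 is the isoform that spinal interneurons need to survive. In the other 6 libraries PCDHAC1 lay between 0.809 and 5.24, PCDHGC4 between 0 and 2.10 and PCDHGC5 between 1.02 and 7.88.

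**Figure D4:**
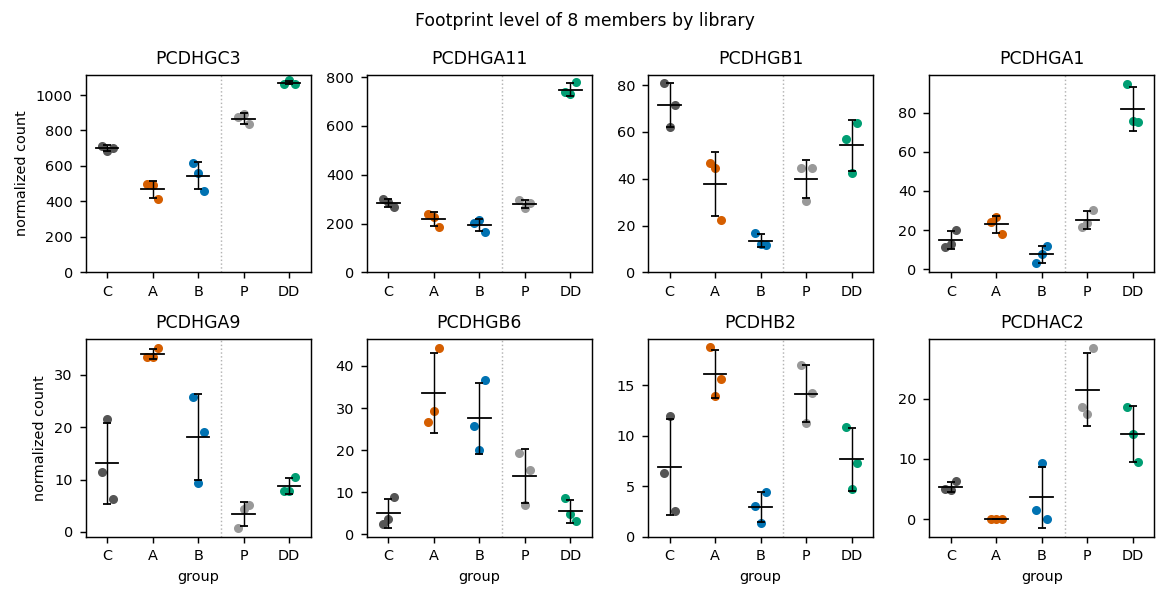
Normalized counts (y axis, linear, own scale per panel) of 8 members in each library. Points are libraries, horizontal bars means and error bars SD of 3; C is Flag/HA control, A ZC3H7A overexpression, B ZC3H7B overexpression, P Parental, DD the libraries labelled ZC3H7A/B-DD, and the dotted line divides the sets prepared by different protocols. Left of the line, PCDHGB1 is lowest in B and PCDHGB6 is higher in A and B than in C; right of it, PCDHGA11 and PCDHGA1 are higher in DD than in P.

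Overexpression of ZC3H7B was set against the same control libraries, so its changes and those above share their baseline. PCDHGB1 fell the furthest, PCDHGC3 and PCDHGA11 fell as well, and PCDHGB6, PCDHA11 and PCDHGA12 rose. Of the 12 members tested 6 were called, against 54.3% of all genes. Higher calls numbered 3 (28.9% of all genes) and lower calls 3 (25.4% of all genes), and with quantile scaling 2 were higher and 5 lower. The members' median log2 change was -0.46, against 0.04 over all genes. PCDHGB6, PCDHA11 and PCDHGA12, the members called higher, had passed the filter only through the overexpressing groups. A higher value was therefore built into their entry here too, and these counts and this median are descriptions only.

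PCDHGB1 stood at 16.7, 12.1 and 11.7 with ZC3H7B against 81.0, 62.2 and 71.7 in the control, with a log2 change of -2.33 ± 0.30 (limma adjusted p = 6.14e-07). Over its alternatives the adjusted p ranged from 6.13e-10 to 1.17e-05. PCDHGA11 stood at 204, 213 and 166 and fell by 0.56 ± 0.13 (limma adjusted p = 0.000650). PCDHGC3 stood at 614, 562 and 461 and fell by 0.37 ± 0.09 (limma adjusted p = 0.00203). In each of these 3 genes all ZC3H7B libraries lay below all controls.

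PCDHGB6 stood at 25.8, 20.1 and 36.7 with ZC3H7B, a log2 change of 2.36 ± 0.42 (limma adjusted p = 4.20e-05), again with all libraries above the control. PCDHA11 stood at 12.2, 6.71 and 10.3 (log2 change 1.80 ± 0.54, limma adjusted p = 0.00738). Without the filter the adjusted p-values were 0.000108 for PCDHGB6 and 0.0369 for PCDHA11 (limma). PCDHGA12 stood at 4.56, 10.7 and 10.3 (log2 change 1.80 ± 0.62, limma adjusted p = 0.0170), and its call was lost without the filter (0.0544) and with quantile scaling (0.0538). PCDHGA9 stood at 25.8, 9.39 and 19.1 and was not called (log2 change 0.49 ± 0.42, limma adjusted p = 0.339). Nor was PCDHGA1 at 3.04, 8.05 and 11.7 (log2 change -0.997 ± 0.448, limma adjusted p = 0.0640), which was called lower with quantile scaling (0.0202), in 1 fit of 15 libraries (0.0401) and without ZC3H7B replicate 3 (0.0199). Nor was PCDHB2 at 3.04, 1.34 and 4.40 (log2 change -0.90 ± 0.58, limma adjusted p = 0.194). PCDHB14 stood at 7.60, 5.37 and 2.93 and PCDHGB2 at 16.7, 5.37 and 7.33. PCDHGB2 was not called, but was called lower with quantile scaling (limma adjusted p = 0.0384) and without ZC3H7B replicate 1 (0.0213). PCDHGB7 ranged from 1.52 to 14.8 within this line, and was called higher only without that replicate (limma adjusted p = 0.0217).

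**Figure D5:**
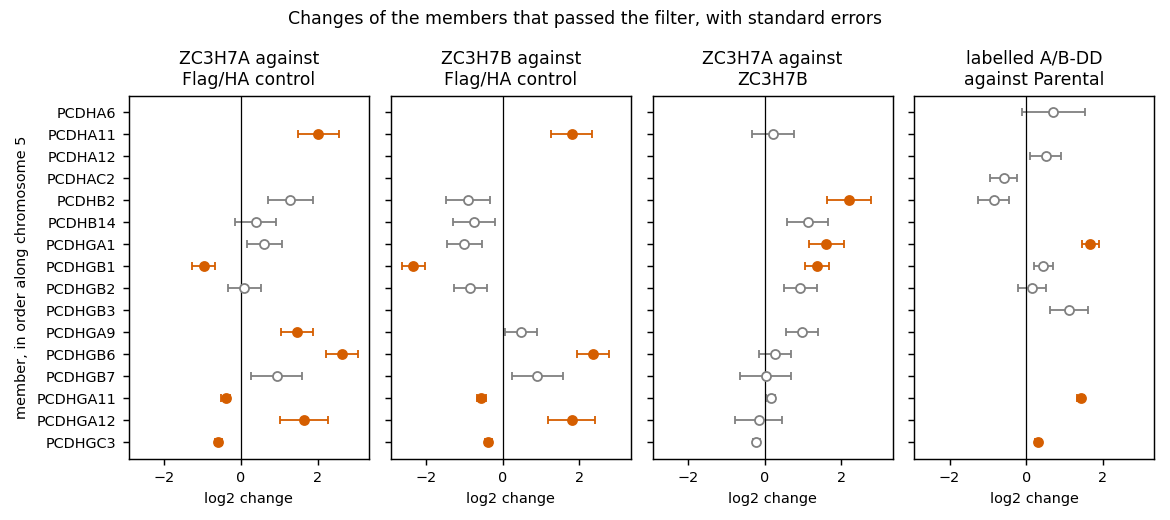
Log2 change (x axis, on log2(normalized count + 1)) with SE of each member that passed the filter, in order along chromosome 5, for the 4 comparisons. Filled points passed the limma test at an adjusted p under 0.05. The first 2 panels share their control libraries, and PCDHGA1, PCDHGA11 and PCDHGC3 are the called members in the last.

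The overexpressing lines were compared directly, which tests whether the changes differ. Of the 12 members 3 were called, all higher with ZC3H7A, against 36.6% of all genes called, 18.4% higher and 18.2% lower. PCDHB2 was higher with ZC3H7A by 2.20 ± 0.58 on the log2 scale (limma adjusted p = 0.00403). It had passed the filter only through the ZC3H7A libraries, so a higher value there was built into its entry; without any filter its adjusted p was 0.0158 (limma). PCDHGA1 was higher by 1.61 ± 0.45 (limma adjusted p = 0.00619) and PCDHGB1 by 1.37 ± 0.30 (limma adjusted p = 0.000852). In all 3 genes the 3 ZC3H7A libraries lay above the 3 ZC3H7B libraries. The median change was 0.61 over the 12 members and -0.01 over all genes. PCDHB14, like PCDHB2, would not have passed the filter without the ZC3H7A libraries, so the count called and this median are descriptions only. PCDHGB6 (log2 change 0.28 ± 0.42, limma adjusted p = 0.652) and PCDHGA11 (0.16 ± 0.13, limma adjusted p = 0.356) were not called between these lines, nor was PCDHGC3 (-0.22 ± 0.09, limma adjusted p = 0.0806). Without ZC3H7B replicate 3, its lowest library, PCDHGC3 was called lower with ZC3H7A (log2 change -0.33, limma adjusted p = 0.00537). PCDHGA9 was called higher with ZC3H7A with a pseudocount of 5 (limma adjusted p = 0.0483), with precision weights (0.0407) and without ZC3H7B replicate 1 (0.0342), and PCDHGB2 without that replicate (0.0224).

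Of the 16 beta members outside the test, the mean was higher with ZC3H7A than with ZC3H7B in 10, lower in 4 and equal in 2, and in 3 the libraries did not overlap. Single reads set some of these directions: PCDHB1 had 1 read with ZC3H7A and 0 with ZC3H7B, and PCDHB17 had 0 and 1. The same shares over all genes were not taken, so these counts are descriptions only. PCDHB13 stood at 12.1, 15.4 and 5.22 with ZC3H7A and at 1.52, 0 and 4.40 with ZC3H7B. PCDHB8 stood at 18.7, 5.59 and 5.22 against 1.52, 0 and 1.47. Neither passed the filter, and both were called without it (limma adjusted p = 0.0340 and 0.0275). These 2 genes share over 59% of their 28-base stretches with other members, so their reads cannot be fully told apart. PCDHGA7 (12.1, 4.19 and 10.4 against 1.52, 1.34 and 0) and PCDHGA3 were called only in that unfiltered fit too.

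The effect of losing both proteins was the question behind setting the libraries labelled ZC3H7A/B-DD against Parental. PCDHGA11 and PCDHGA1 rose strongly and PCDHGC3 by less, and no tested member was called lower. Of the 55 members 10 passed the filter and 3 were called, against 24.5% of all 17092 genes tested. All 3 were higher, the direction of 11.0% of all genes, and lower calls made up 13.5%. The median log2 change was 0.47 over the 10 members and 0.02 over all genes. Some of the 10 passed the filter only through the libraries labelled ZC3H7A/B-DD and others only through Parental, as given below. The count called and this median are therefore descriptions only.

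PCDHGA11 stood at 295, 263 and 285 in Parental and at 737, 729 and 780 in the libraries labelled ZC3H7A/B-DD. It rose by 1.41 ± 0.10 on the log2 scale (limma adjusted p = 3.55e-05), and its change stayed between 1.36 and 1.46 over the alternatives. PCDHGA1, the outermost gamma gene, stood at 21.9, 23.5 and 30.5 in Parental and at 94.9, 75.6 and 75.5, with a log2 change of 1.67 ± 0.22 (limma adjusted p = 0.00110). Its adjusted p ranged from 1.11e-06 to 0.00723. PCDHGC3 stood at 878, 890 and 834 in Parental and at 1065, 1082 and 1064, all higher (log2 change 0.30 ± 0.08, limma adjusted p = 0.0260). This call was lost without the filter (limma adjusted p = 0.0830) and on leaving out Parental replicate 1 (0.0768) or 2 (0.0900). It was also lost without replicate 1 (limma adjusted p = 0.0540), 2 (0.0610) or 3 (0.0846) of the libraries labelled ZC3H7A/B-DD. Summed neuronal markers were higher in the same libraries, as given above. The sum of the 13 HEK293 markers was higher too, at 58036 to 62668 against 42212 to 48829 in Parental. Sums of 3 muscle markers (97.2 to 150 against 110 to 121) and of 2 hepatocyte markers (6.30 to 16.8 against 6.95 to 12.2) overlapped. The 5 blood markers summed to 155 to 208 in Parental and 299 to 358 in the libraries labelled ZC3H7A/B-DD, and 5 fibroblast markers to 95.5 to 127 and 47.3 to 89.1, neither overlapping. Only 2 of the blood markers in either group, and 3 and 2 of the fibroblast markers, reached 10 normalized counts in every library. The part of these markers in these changes was not tested.

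The balance of the 2 leading genes moved with this. PCDHGA11 gave 0.325 ± 0.0252 reads per PCDHGC3 read in Parental and 0.700 ± 0.0302 in the libraries labelled ZC3H7A/B-DD, with every library above every Parental one (two-sided exact permutation p = 0.1, the smallest 3 against 3 can give). Among the Flag/HA groups the ratio was 0.406 ± 0.0235 in the control, 0.463 ± 0.0179 with ZC3H7A (exact permutation p = 0.1) and 0.357 ± 0.0240 with ZC3H7B (exact permutation p = 0.2). PCDHGC3's own 28-base stretches occur in no other member and 7.23% of those of PCDHGA11 do.

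The 7 other tested members were not called. PCDHGB3 and PCDHA12 would not have passed the filter without the libraries labelled ZC3H7A/B-DD, and PCDHB2 and PCDHAC2 would not have passed without Parental. PCDHA6 needed libraries of both groups to pass. PCDHGB3, a gamma B isoform, stood at 12.1, 2.61 and 6.10 in Parental and at 13.2, 14.2 and 14.7 in the libraries labelled ZC3H7A/B-DD (log2 change 1.11 ± 0.49, limma adjusted p = 0.130). PCDHGB1 stood at 44.5, 30.4 and 44.7 against 56.8, 42.5 and 63.9, with overlap. PCDHGB2 stood at 21.9, 14.8 and 20.3 against 31.9, 12.6 and 22.0. PCDHB2 stood at 17.0, 11.3 and 14.2 against 10.9, 4.73 and 7.34, without overlap (log2 change -0.86 ± 0.40, limma adjusted p = 0.146).

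Of the alpha array PCDHAC2, PCDHA12 and PCDHA6 were tested in these libraries, and none was called. PCDHAC2 stood at 18.6, 17.4 and 28.4 in Parental and at 18.7, 14.2 and 9.43 in the libraries labelled ZC3H7A/B-DD (log2 change -0.59 ± 0.35, limma adjusted p = 0.252). PCDHA12 stood at 15.4, 9.56 and 13.2 against 11.7, 29.9 and 16.8, and PCDHA6 at 21.0, 5.21 and 1.02 against 4.67, 15.8 and 11.5. PCDHA6 spread widely within both groups, and 48.9% of its 28-base stretches occur in another member. PCDHA2, untested, stood at 18.6, 8.69 and 10.2 in Parental and at 5.45, 0 and 4.19, the former all higher.

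Members outside the filter are given by level. PCDHA10 stood at 3.80, 1.20 and 0 in the control, 5.36, 5.59 and 3.91 with ZC3H7A and 0, 1.34 and 4.40 with ZC3H7B, and at 4.86, 3.48 and 3.05 in Parental and 3.11, 1.58 and 5.24 in the libraries labelled ZC3H7A/B-DD. PCDHB16 stood at 1.27, 4.79 and 5.03 in the control, 9.37, 6.99 and 2.61 with ZC3H7A and 0, 1.34 and 1.47 with ZC3H7B. In the other 6 libraries it lay between 2.43 and 7.82. PCDHB11 stood at 9.71, 11.3 and 3.05 in Parental and at 2.33, 9.45 and 1.05 in the libraries labelled ZC3H7A/B-DD, with 6, 4 and 2 reads in the control, ZC3H7A and ZC3H7B groups. PCDHB15 stood at 12.1, 7.82 and 4.06 in Parental and at 10.9, 3.15 and 4.19, and at 0 to 8.03 in the Flag/HA libraries. PCDHGA2, next to PCDHGA1, stood at 4.05, 5.21 and 5.08 in Parental and at 3.11, 7.88 and 2.10 in the libraries labelled ZC3H7A/B-DD, while PCDHGA1 rose.

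Genes known to govern protocadherin promoters were taken as a list of 28, all tested. With ZC3H7A 9 were called higher and 8 lower (60.7% called, against 57.5% of all genes), and with ZC3H7B 8 and 10 (64.3%, against 54.3%). Between the lines 9 were higher with ZC3H7A and 6 lower (53.6%, against 36.6%), and in the libraries labelled ZC3H7A/B-DD 7 and 3 (35.7%, against 24.5%). The list's median log2 change was -0.01, 0.01, 0.00 and 0.25 in the same order, against 0.02, 0.04, -0.01 and 0.02 over all genes. SMCHD1, a chromatin protein that silences the clusters, fell with ZC3H7A from 13339 ± 146 to 10702 ± 219 normalized counts (limma adjusted p = 3.81e-07) and with ZC3H7B to 9125 ± 38.9 (6.54e-11). STAG2, a cohesin subunit, fell with ZC3H7B from 28100 ± 335 to 16742 ± 506 (limma adjusted p = 8.66e-13). PDS5B, a cohesin regulator, fell with ZC3H7A from 6407 ± 186 to 3711 ± 156 (limma adjusted p = 1.05e-12). TET3, which oxidizes methylated cytosine, rose with ZC3H7A from 636 ± 22.4 to 1146 ± 122 (limma adjusted p = 6.22e-10). TRIM28 of the same list rose with ZC3H7A from 21526 ± 656 to 33304 ± 1296 (limma adjusted p = 1.12e-10). With ZC3H7B WIZ rose from 610 ± 26.5 to 1121 ± 35.0 (limma adjusted p = 6.74e-11). ZNF274, a zinc finger protein that recruits silencing enzymes, rose with ZC3H7B from 1255 ± 17.1 to 2219 ± 186 (limma adjusted p = 1.89e-10). In the libraries labelled ZC3H7A/B-DD the methyltransferase DNMT3B fell from 1250 ± 352 to 749 ± 52.8 (limma adjusted p = 0.0179). ZNF274 fell there from 1895 ± 150.3 to 1340 ± 96.2 (limma adjusted p = 0.00615). STAG1 rose there from 1290 ± 257 to 1999 ± 168 (limma adjusted p = 0.00997) and LRIF1 from 749 ± 16.7 to 1154 ± 80.7 (0.00157).

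Partners and proteases of the clustered protocadherins gave 27 tested genes. With ZC3H7A 10 were called higher and 12 lower (81.5% called, against 57.5% of all genes), and with ZC3H7B 5 and 13 (66.7%, against 54.3%). Between the lines 12 were higher with ZC3H7A and 5 lower (63.0%, against 36.6%), and in the libraries labelled ZC3H7A/B-DD 2 and 4 (22.2%, against 24.5%). The median log2 change was -0.01, -0.12, 0.08 and -0.09 in that order. MARCKS, an actin regulator downstream of gamma protocadherins, rose with ZC3H7A from 2826 ± 98.9 to 5227 ± 116 (limma adjusted p = 1.04e-13) and with ZC3H7B to 4511 ± 112 (1.10e-11). ADAM10, which sheds protocadherin ectodomains, fell with ZC3H7B from 9475 ± 297 to 6686 ± 364 (limma adjusted p = 1.89e-09). NCSTN, a subunit of the gamma-secretase that then cuts the remaining stub, fell with ZC3H7A from 8214 ± 207 to 5057 ± 338 (limma adjusted p = 5.14e-11). PTK2, the focal adhesion kinase that binds their constant domains, rose in the libraries labelled ZC3H7A/B-DD from 1838 ± 99.4 to 2847 ± 51.7 (limma adjusted p = 0.000841). PRKCB fell there from 760 ± 54.9 to 533 ± 15.4 (limma adjusted p = 0.00545) and PTK2B from 155 ± 22.7 to 99.3 ± 7.11 (0.0207).

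Of 11 protocadherins encoded elsewhere 9 were tested. With ZC3H7A 4 were called higher and 4 lower (88.9% called, against 57.5% of all genes), and with ZC3H7B 1 and 6 (77.8%, against 54.3%). Between the lines 3 were higher with ZC3H7A and 1 lower (44.4%, against 36.6%), and in the libraries labelled ZC3H7A/B-DD 1 and 0 (11.1%, against 24.5%). The median log2 change was -0.25, -0.58, 0.14 and 0.11 in that order. PCDH19 rose from 575 ± 9.72 to 923 ± 94.6 with ZC3H7A (limma adjusted p = 1.01e-08) and to 2033 ± 50.8 with ZC3H7B (3.95e-16). PCDH9 fell with ZC3H7B from 2286 ± 13.8 to 1752 ± 26.3 (limma adjusted p = 9.69e-07) and PCDH7 from 5113 ± 137 to 4171 ± 225 (9.57e-06). With ZC3H7A PCDH7 fell to 4005 ± 73.6 (limma adjusted p = 7.09e-07) and PCDH18 from 248 ± 37.6 to 135 ± 13.8 (1.28e-05). PCDH9 rose in the libraries labelled ZC3H7A/B-DD from 1007 ± 80.2 to 2126 ± 177 (limma adjusted p = 0.000147). Among 20 genes beside or between the arrays, 18 were tested in the Flag/HA libraries and 17 in the others. With ZC3H7A 3 were called higher and 3 lower (33.3% called, against 57.5% of all genes), and with ZC3H7B 5 and 4 (9 of 18, against 54.3%). Between the lines 3 were higher with ZC3H7A and 2 lower (27.8%, against 36.6%), and in the libraries labelled ZC3H7A/B-DD 3 and 2 (29.4%, against 24.5%). The median log2 change was 0.02, 0.09, -0.04 and -0.09 in that order. HDAC3, past the gamma array, fell in those last libraries from 2230 ± 230 to 1613 ± 51.6 (limma adjusted p = 0.00912). GNPDA1 rose there from 2698 ± 93.9 to 3432 ± 70.8 (limma adjusted p = 0.0118) and ZMAT2 from 2753 ± 256 to 3801 ± 403 (0.0134).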

How the data were processed

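The authors deposited 1 table of normalized signal for 55773 gene names in 15 libraries. Tools listed in the submitters' processing notes are STAR, Bowtie, HTSeq, cutadapt and DESeq2, beside the builds hg19 and hg38, with neither version nor role. Not given in the sources used here are the build aligned to, the footprint lengths and the handling of reads in shared exons or with several places. In each library 100% of values were whole multiples of 1 step within 0.001 reads, so reads were recovered, and the deposited signal is read here as counts divided by a size factor. Counts of reads cover counting error only.

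Genes at 10 or more in at least 3 libraries were tested on log2(value + 1) with limma 3.58.1 in R 4.3.3 (trend). A call needed a Benjamini-Hochberg adjusted p under 0.05. The 9 Flag/HA libraries shared 1 fit and the other 6 had their own. The step was tested on simulated data. Other pseudocounts, filters and scalings were tried, as were precision weights, edgeR 4.0.16 and DESeq2 1.42.0 on recovered reads, a replicate block, 1 fit of 15 libraries and leaving out each library. On the recovered reads edgeR called 9033, 8496, 5746 and 4125 genes for ZC3H7A, ZC3H7B, the lines against each other and the libraries labelled ZC3H7A/B-DD. Ratios were compared by exact permutation in scipy 1.17.1. Junctions and annotation come from GENCODE release 29 (GRCh38), promoters from RefSeq (GRCh38.p14). Members named with values were the 3 highest per family in each control, all C-type members and called members with no overlap and a mean of 20 or more. Others were named after their values were seen. The members and lists were chosen with earlier results of these data known.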

Additional observations from a re-analysis of the deposited data

Results flagged for a closer look

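The change with ZC3H7A differed from the change with ZC3H7B in 3 members, by limma's test of the difference between the overexpressing lines. The difference was 2.20 on the log2 scale for PCDHB2, 1.61 for PCDHGA1 and 1.37 for PCDHGB1. PCDHB2 and PCDHGA1 stood above the control mean with ZC3H7A and below it with ZC3H7B, without a call against the control in either line, although alternatives given above called PCDHB2 higher with ZC3H7A and PCDHGA1 lower with ZC3H7B. PCDHB2 had entered the test only through its ZC3H7A libraries. PCDHGB1 was lower in both lines.

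PCDHGB8P, a gamma pseudogene row outside the rule for members, stood at 12.1, 12.6 and 6.52 normalized counts with ZC3H7A (mean 10.4), against 3.80, 0 and 1.26 in the control. It stood at 4.56, 9.39 and 0 with ZC3H7B.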

How the results depend on the processing

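Of the values of single members under the alternatives, 688 kept their direction and side of the threshold, 17 gained a call, 15 lost one and 13 changed sign. Counts of called members moved most with the filter, which sets how many members are tested. With a filter of 50 the counts were 3 for ZC3H7A, 3 for ZC3H7B and 1 between the lines, where only 3 members were tested, and without a filter 7 were called between the lines. Leaving out each library gave 5 to 7, 5 to 8, 3 to 5 and 2 to 3 called members in the 4 comparisons (the 5 between the lines without ZC3H7B replicate 1), and 1895 genes (without Parental replicate 2) to 5560 (without Parental replicate 3) in all for the last. The 13 sign changes were of uncalled values. PCDHGB2 was at -0.087 with ZC3H7A under quantile scaling, and PCDHGB7 between the lines at -0.070 with a pseudocount of 5, -0.32 with edgeR and -0.31 with DESeq2. Leaving out libraries gave -0.15 to 0.84 for PCDHB14 and -0.034 to 0.28 for PCDHGB2 with ZC3H7A, -0.50 to 0.039 for PCDHGA12 and -0.80 to 0.38 for PCDHGB7 between the lines. In the libraries labelled ZC3H7A/B-DD it gave -0.14 to 1.15 for PCDHA6 and -0.16 to 0.48 for PCDHGB2. The cause was not tested. With a replicate block 7, 6, 4 and 2 members were called, PCDHGC3 gaining a call between the lines (limma adjusted p = 0.0369) and losing it in the libraries labelled ZC3H7A/B-DD (0.0741). Deviations from the group means correlated at -0.057 to 0.092 between same-numbered libraries of the Flag/HA set and -0.133 to 0.033 in the other. Between differently numbered libraries they correlated at -0.101 to 0.081 and -0.034 to 0.166. These ranges overlap, so no pairing by number was seen, but 3 libraries per group cannot exclude it. Members with only a few reads in both groups compared can hardly show changes at this depth.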
